A study of Mus musculus with 72 samples.

Results

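The mitochondrial chromosome of the mouse carries 37 genes, and the 6 tissue tables hold 13 of them among their 36047 mouse genes. The members were taken by name, as every gene whose GENCODE M21 symbol starts with mt-, without use of any measured value. All 13 are protein-coding. The other 24, which are 2 ribosomal RNAs and 22 transfer RNAs, have no row in the tables, whose rows are protein-coding genes, pseudogenes and immunoglobulin or T cell receptor segments, and they were not analysed here. The comparison by class therefore comes down to the 13 mRNAs and to the pseudogenes in the nucleus that copy them.

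Mitochondria keep a small circular genome of their own, and its mRNAs all encode membrane subunits of oxidative phosphorylation, the process by which electrons passed along the respiratory chain drive the making of ATP. Both strands are transcribed as long precursors by Polrmt with the help of Tfam. The transfer RNAs that punctuate the precursor are cut out to release the mRNAs, most of which then receive a short poly(A) tail. Tissues that burn much oxygen, such as heart, kidney and liver, are known for a high share of these transcripts, and stretches of mitochondrial DNA have also been copied into the nuclear chromosomes, where they are annotated as pseudogenes.

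RNA was sequenced from lung tumours and from 5 organs (lung, liver, kidney, spleen, thymus) of EGFR DEL19 transgenic mice, 72 libraries in all. All mice had received doxycycline for 25 days, after which tumours in the lungs were looked for by micro-CT. They were then given 1 of 3 genetic circuits, named after the CMV promoter, at 10 mg/kg into a vein every 2 days, 7 times, with tissues taken on day 14. CMV-GE11-siRE encodes an siRNA against EGFR together with GE11, a peptide that binds the receptor, CMV-siRE encodes the siRNA alone, and CMV-scrR encodes a scrambled RNA and is the control. Each circuit has 4 libraries in each tissue, and nothing in the labels says that they come from separate animals. Apart from a Y chromosome difference in the tumours, given below, the spread among these libraries, on which p-values rest, may therefore be technical. The limma fits used below also draw each gene's spread toward a trend over genes of like level. Their standard errors and p-values thus reflect that trend as well as the gene's own libraries. The sources used here give neither the promoter of the EGFR transgene nor the strain or age of the mice.

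The tables give values that the authors had already divided by size factors, 1 table per tissue, so depth is unknown and precision rests on how far libraries differ. Column totals ran from 5.87 M to 43.8 M in the tumours and from 16.9 M to 21.4 M in the organs (M, parts of 1000000). In the tumours they differed by circuit, at 5.87 M to 9.48 M with CMV-GE11-siRE, 12.2 M to 43.8 M with CMV-siRE and 21.2 M to 37.1 M with CMV-scrR. Tumour differences on the deposited values are therefore larger than differences in shares. Levels below are shares of the column total, in percent or in ppm (parts in 1000000), and they can be set side by side across tissues only as a description. As a check of the labels, the human EGFR transcript had 6.14 to 19.9 ppm in tumours given CMV-GE11-siRE, 16.4 to 72.96 with CMV-siRE and 87.04 to 109 with CMV-scrR. Ddx3y, a gene of the Y chromosome, exceeded 10 ppm in 4 of the 12 tumour libraries and in 0 of the 60 organ libraries. The 4 were CMV-GE11-siRE replicate 2, CMV-siRE replicates 2 and 4 and CMV-scrR replicate 2. Each circuit thus had tumour libraries with and without this signal, so its tumour spread was not technical alone. No organ library with the circuit and number of these 4 tumours had that signal.

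Of the 13 members, 12 lie on the + strand of the chromosome in the annotation and 1, mt-Nd6, on the - strand. Neighbouring genes overlap in places, and the stretch shared by mt-Atp8 and mt-Atp6 is shown because reads inside it belong to both genes, which encode subunits of the ATP synthase. It is chrM:7927-7969 of GRCm38, 43 bases on the + strand, with the start codon of mt-Atp6 and the stop codon of mt-Atp8 in capitals.
mt-Atp8 and mt-Atp6: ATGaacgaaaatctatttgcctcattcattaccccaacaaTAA
The annotated ends show a second trait of these mRNAs. In mt-Co3, mt-Nd4 and mt-Cytb the reading frame ends on a lone T, and the poly(A) tail completes the stop codon, while the other 10 carry a whole stop codon. The last 24 bases of these 3 genes (chrM:9367-9390, chrM:11521-11544 and chrM:15265-15288, + strand) and of mt-Co1 (chrM:6849-6872, + strand) are given with the stop or its first base in capitals.
mt-Co3: tctccatttattgatgaggatctT
mt-Nd4: aactaattacaggcctgacaataT
mt-Cytb: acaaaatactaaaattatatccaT
mt-Co1: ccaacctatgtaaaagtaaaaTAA

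The measurement of single members is limited by a stretch of mouse chromosome 1 (chr1:24611535-24616197, - strand) that copies part of the mitochondrial genome. It holds 7 annotated pseudogenes, of which 5 match a member base for base over the aligned stretch and 2 differ at 1 base. Gm28661 equals mt-Co2 over 681 of its 684 bases, Gm28437 equals mt-Co3 over 783 of 784, and Gm10925 equals mt-Atp6 over 678 of 681. A read from such a stretch cannot be placed by its sequence. The first 60 bases shared by mt-Co2 (chrM:7013-7072, + strand) and Gm28661 are shown once, since they are the same in both, with the start codon in capitals.
mt-Co2 and Gm28661: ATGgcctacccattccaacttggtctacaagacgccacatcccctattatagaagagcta
The 2 pseudogenes with a difference are shown with that base in capitals. Gm28438 differs from mt-Nd3 by T3C, the first letter being the base of the mitochondrial gene and positions counted from 1 at its 5′ end (chrM:9459-9481, + strand, and chr1:24613097-24613119, - strand). Gm29216 covers the last 483 bases of mt-Co1 and differs by A1066T in the fourth base of the match (chrM:6373-6413, + strand, and chr1:24616165-24616197, - strand); the bases of Gm29216 before the match are not alike.
mt-Nd3: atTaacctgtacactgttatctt
Gm28438: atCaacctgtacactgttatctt
mt-Co1: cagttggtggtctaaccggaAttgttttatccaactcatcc
Gm29216: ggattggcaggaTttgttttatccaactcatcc

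Values were divided between each member and its copy. The deposited mt-Co2 was the smaller side of its pair in every library, at 12.4% to 20.4% of the sum of mt-Co2 and Gm28661 in tumours and between 14.1% and 45.2% in the organs. For mt-Co3 the mitochondrial side held 76.3% to 89.4% in tumours and between 37.98% and 82.2% in the organs. For mt-Atp6 it held at least 99.9% in kidney and 96.1% in liver, but 57.1% to 94.1% in spleen. The division of an identical pair varied between libraries of 1 tissue. For mt-Atp6 it also followed the circuit in liver and spleen, where Gm10925 was higher than with CMV-scrR in limma on deposited values. In liver it was at 5.39 ± 0.88 (adjusted p = 0.00629) with CMV-siRE and 4.42 ± 0.88 (adjusted p = 0.0146) with CMV-GE11-siRE, from at most 1.80 ppm in the controls. In spleen it was at 1.90 ± 0.30 (adjusted p = 0.0032) and 1.83 ± 0.30 (adjusted p = 0.00823). It did not pass in lung, kidney or thymus. Library levels of these 3 genes are therefore given below both alone and with the copy added, and other values say where the copy is included.

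Of the 2 copies that differ at 1 base, only Gm28438 set the tumours apart from the organs by its share of the pair. Gm28438 took most of its pair in the tumours, where mt-Nd3 held 19.5% to 34.2%, while mt-Nd3 held at least 84.2% in the 60 organ libraries. This division of mt-Nd3 held in all 12 tumour libraries, under each of the 3 circuits. Gm29216 had 1262 to 12961 ppm in the tumours and at most 335 ppm in the organs, but mt-Co1 also had its highest median in the tumours. As a share of the pair, mt-Co1 held 93.1% to 97.8% in the tumours and at least 96.49% in the organs. These ranges overlapped, through libraries of lung and spleen.

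**Figure D1:**
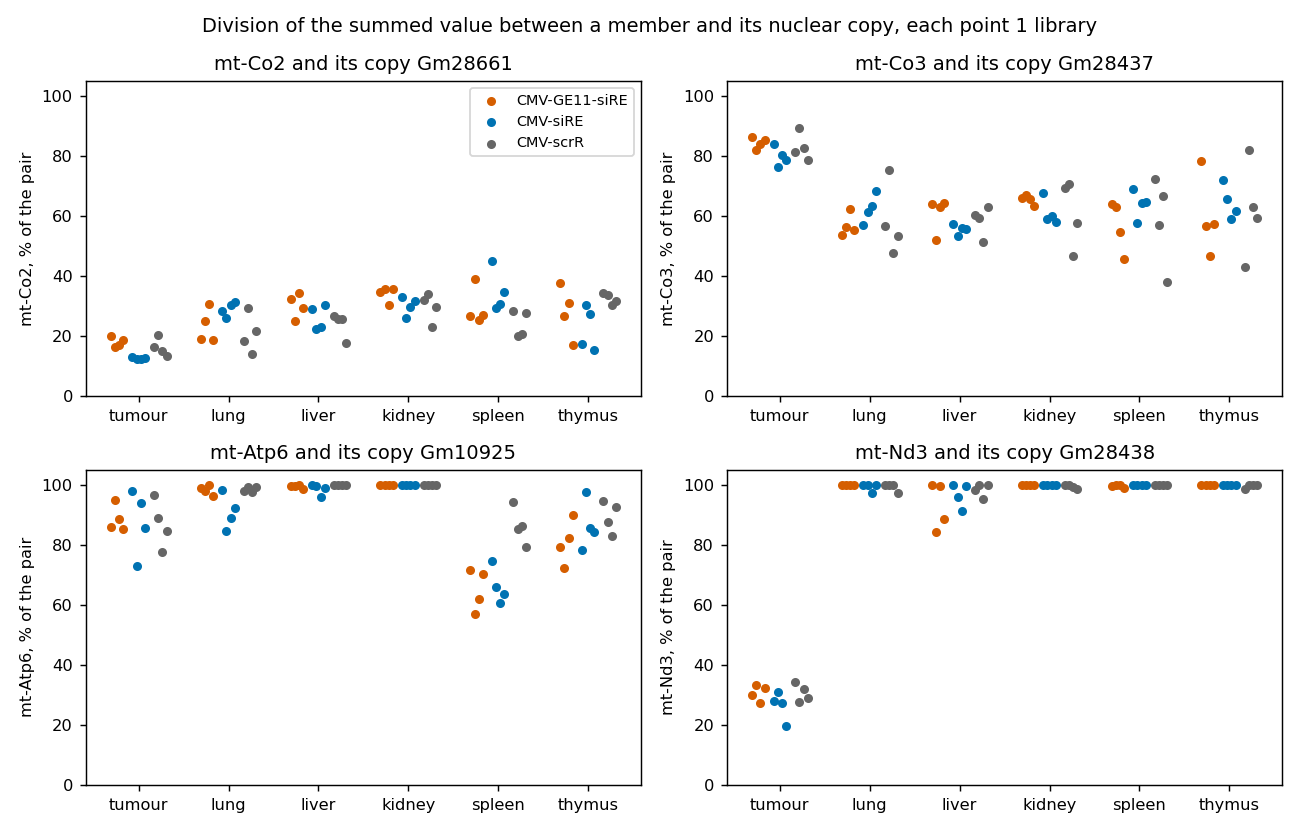
Share of the summed value of a member and its nuclear copy that the deposited table gives to the member, in percent, for mt-Co2, mt-Co3, mt-Atp6 and mt-Nd3 in 6 tissues. Each point is 1 library and colours mark the circuits. The mt-Nd3 share is 19.5% to 34.2% in tumours and at least 84.2% elsewhere, and the mt-Atp6 share in spleen is 57.1% to 71.7% with CMV-GE11-siRE, 60.6% to 74.7% with CMV-siRE and 79.3% to 94.1% with CMV-scrR.

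Across tissues the sum of the 13 mRNAs was highest in the tumours, followed by kidney and liver. Its median over 12 libraries was 61.1% of the column total in tumour, 11.7% in kidney, 5.39% in liver, 2.25% in lung, 1.94% in spleen and 1.82% in thymus. The lowest and highest libraries were 8.04% and 73.1% in tumour, 3.69% and 12.7% in kidney, and 0.558% and 1.92% in thymus. Lung, spleen and thymus overlapped. The kidney library at 3.69% lay below every liver library and the other 11 above, and the tumour library at 8.04%, CMV-GE11-siRE replicate 1, was the only tumour within the range of an organ. In bulk tissue, fewer mitochondria-rich cells and less mitochondrial RNA per cell cannot be told apart. The tumour with the largest share, at 73.1%, listed 15523 genes above 0, and the tumour at 8.04% listed 19920. RNA quality could not be examined here, and its part was not tested. The column total also holds no ribosomal or other non-coding RNA, so these are shares of the listed genes, not of all RNA.

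**Figure D2:**
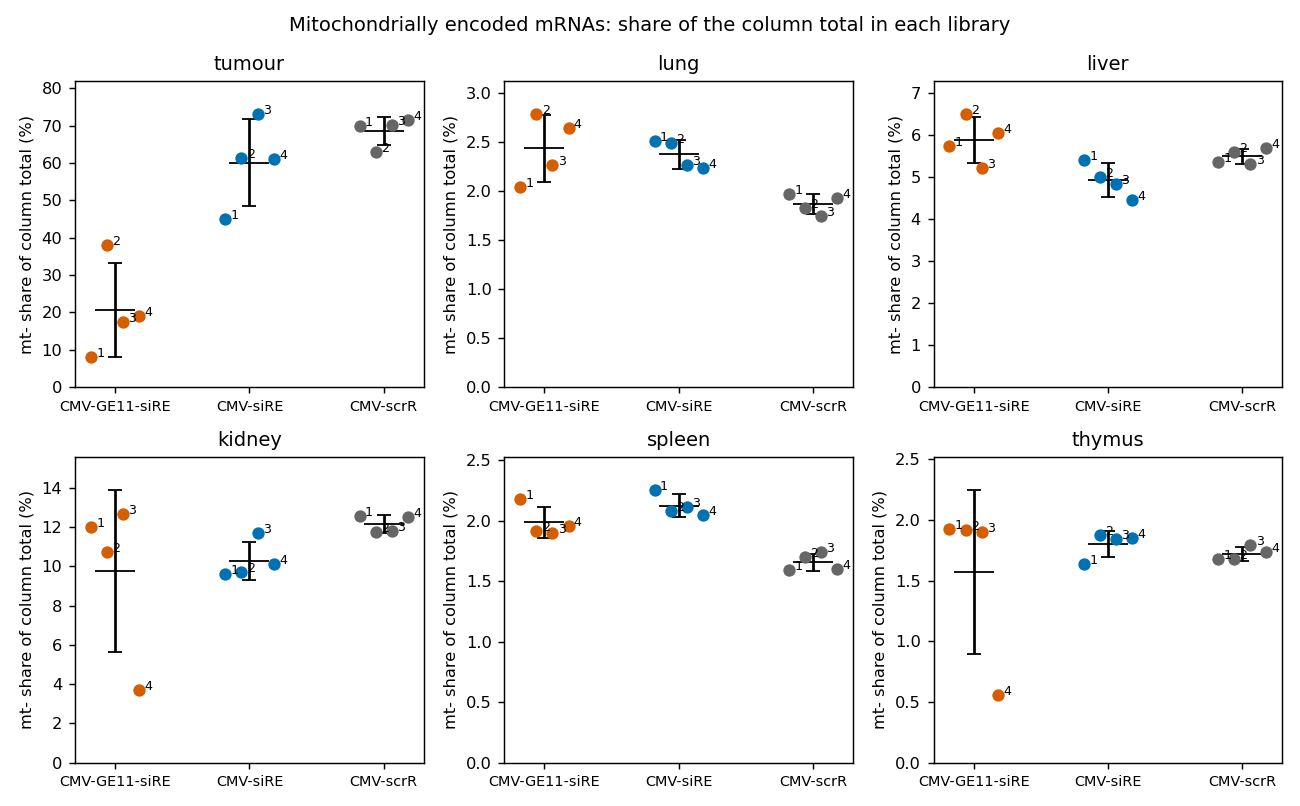
Sum of the 13 mitochondrially encoded mRNAs as a percent of the column total (vertical axes, linear and from 0) in each library, by tissue and circuit. Points are libraries, numbered by replicate, and the bar with whiskers is the mean ± SD of 4. Tumours given CMV-GE11-siRE lie at 8.04% to 37.9%, against 44.97% to 73.1% with CMV-siRE and 63.1% to 71.4% with CMV-scrR; replicate 4 of CMV-GE11-siRE stands low in kidney and thymus.

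The order of the members among themselves was close to the same in every tissue. With copies added and values divided by gene length, mt-Co1, the catalytic subunit of cytochrome c oxidase (complex IV), was the most abundant member in all 6 tissues, at a median of 21.2% of the length-corrected sum in tumour and 25.01% in spleen. Next by medians came mt-Co2, the complex IV subunit that takes electrons from cytochrome c, at 11.97% to 17.2% across tissues. Then came the third complex IV subunit mt-Co3 at 10.03% to 12.9%, which by medians was below mt-Cytb in liver and kidney. By means the order in kidney differed, with mt-Co3 at rank 2, mt-Co2 at rank 3 and mt-Cytb at rank 4. mt-Cytb, the only member in complex III, had 8.62% to 11.5%, and mt-Atp6, the channel subunit of the ATP synthase, 8.29% to 10.55%. The 7 complex I subunits were lower, from 1.59% for mt-Nd3 in thymus to 7.41% for mt-Nd4 in kidney, and mt-Atp8 had 1.14% to 2.39%. The part of gene overlap, short length and poly(A) selection in this order was not tested. The order is thus one of counted values, not of mRNA amounts. Spearman's rho of the 13 members' shares between any 2 tissues lay between 0.92 and 0.99, a description over 13 genes whose lengths are the same in every tissue.

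Some members did change place. mt-Nd2 held 5.995% of the mRNA sum in liver but 3.50% in spleen and 3.35% in thymus (medians of 12, copies added). mt-Nd4, which like mt-Nd2 forms part of the proton-pumping arm of complex I, held 9.77% in kidney and 6.79% in spleen. mt-Nd5 was lowest in the tumours, at 4.21%, and 5.38% to 6.48% in the organs, while mt-Co2 was highest in the tumours, at 11.7%. The short mt-Atp8 and mt-Nd4l reached at most 1.01% of the sum in every library, and mt-Nd6, the member on the other strand, had medians of 1.15% to 1.73%. Each tissue's table was normalized separately, so no test was run across tissues.

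**Figure D3:**
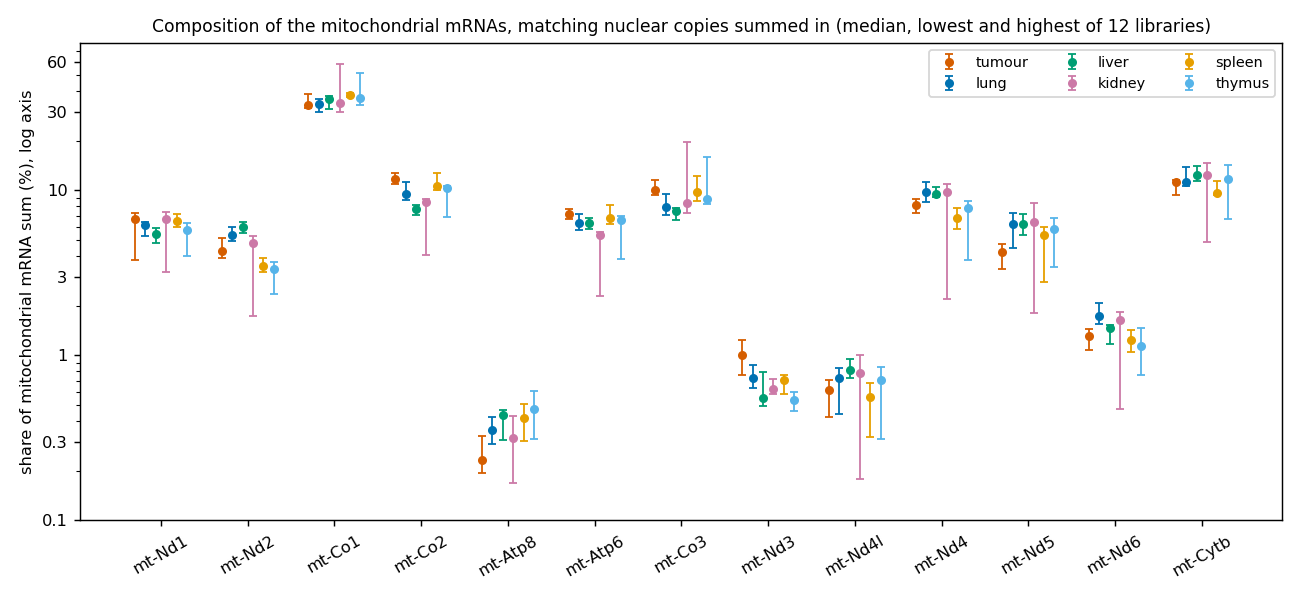
Share of each member in the mitochondrial mRNA sum (vertical axis, percent on a log scale) in 6 tissues, with matching nuclear copies summed in and members in genome order. Points are medians and bars run from the lowest to the highest of 12 libraries. mt-Co1 is highest everywhere, with medians of 32.8% to 37.9%, and the long bars in kidney and thymus come from 1 library each.

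In the tumours given CMV-GE11-siRE all 13 mitochondrial mRNAs were lower than in those given CMV-scrR. Their summed share was 8.04%, 37.9%, 17.5% and 18.97% in the 4 tumours given CMV-GE11-siRE, 44.97%, 61.3%, 73.1% and 60.95% with CMV-siRE and 69.8%, 63.1%, 70.1% and 71.4% with CMV-scrR. The CMV-GE11-siRE tumours lay below all others, and the CMV-siRE and CMV-scrR groups overlapped. Replicate 1 of CMV-GE11-siRE had the smallest share and replicate 2 the largest of its group.

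For mt-Co1 the level in ppm was 28396, 138222, 64087 and 68624 with CMV-GE11-siRE, 163653, 245626, 280769 and 269477 with CMV-siRE and 254331, 235977, 256527 and 270015 with CMV-scrR. mt-Cytb had 10864, 50588, 23480.0 and 25336 with CMV-GE11-siRE, 58071, 82963, 96520.0 and 67851 with CMV-siRE and 86637, 75641, 95434 and 92739 with CMV-scrR. mt-Nd6, transcribed from the opposite strand, had 1236, 5900.0, 2718 and 3061 with CMV-GE11-siRE, 7346, 7816, 9891 and 8406 with CMV-siRE and 11006, 8035, 12132 and 11093 with CMV-scrR. For these 3, as for the other 10, the CMV-GE11-siRE and CMV-scrR groups did not overlap. The members lying wholly below the control were 13 of 13, where 0.385% of the 14044 genes tested did and 75.5% lay wholly above. These percentages are not independent of the members, which fill 63.1% to 71.4% of the column total in the CMV-scrR tumours. A lower share of the members raises the shares of other genes.

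Among the complex I genes, mt-Nd1 had 6228, 29731, 13741 and 15228 ppm with CMV-GE11-siRE, 35698, 48019, 50951 and 27142 with CMV-siRE and 58273, 44433, 57346 and 57756 with CMV-scrR. mt-Nd5 had 4057, 20300.0, 7873 and 7542 with CMV-GE11-siRE, 21848, 29142, 34137 and 30159 with CMV-siRE and 37972, 30488, 36240.0 and 36984 with CMV-scrR. Within CMV-GE11-siRE, replicate 2 was the highest and replicate 1 the lowest for both genes; for mt-Nd1 replicate 2 reached into the CMV-siRE range, and for mt-Nd5 it stayed below it. The short mt-Atp8 had 232, 1079, 499 and 441 with CMV-GE11-siRE, 1117, 1672, 1966 and 1713 with CMV-siRE and 1674, 2350.0, 1945 and 1841 with CMV-scrR.

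The 3 members whose copy matched base for base over nearly their whole length were lower with CMV-GE11-siRE than with CMV-scrR both alone and with the copy. mt-Atp6 had 5999, 29658, 13445 and 14425 ppm alone with CMV-GE11-siRE, 35771, 37330.0, 56020.0 and 47423 with CMV-siRE and 51836, 49691, 46450.0 and 51294 with CMV-scrR, and with its copy 6979, 31233, 15184 and 16903 with CMV-GE11-siRE, 36499, 51270.0, 59644 and 55466 with CMV-siRE and 53706, 55847, 59773 and 60652 with CMV-scrR. mt-Co3 had 9335, 36720.0, 17259 and 21515 ppm alone with CMV-GE11-siRE, 46410.0, 55249, 68715 and 58403 with CMV-siRE and 62658, 60081, 70998 and 66826 with CMV-scrR, and with its copy 10822, 44791, 20502 and 25178 with CMV-GE11-siRE, 55200.0, 72366, 85511 and 74066 with CMV-siRE and 76962, 67179, 85782 and 84919 with CMV-scrR. For both genes the CMV-GE11-siRE tumours lay wholly below the CMV-scrR tumours either way. mt-Co2 had 2293, 8395, 4338 and 5384 ppm alone with CMV-GE11-siRE, 7960.0, 10480.0, 12044 and 10989 with CMV-siRE and 14762, 16121, 15010.0 and 13201 with CMV-scrR, and with its copy 11340.0, 50989, 25604 and 28735 with CMV-GE11-siRE, 61425, 84224, 97387 and 85599 with CMV-siRE and 89215, 79142, 100529 and 99236 with CMV-scrR. The mt-Co2 groups given CMV-GE11-siRE and CMV-scrR were apart either way as well.

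In limma on the deposited values, with Benjamini-Hochberg adjustment over all genes tested and a threshold of 0.05, 13 of 13 fell and 0 rose. The log2 differences ran from -4.20 for mt-Nd4l to -3.74 for mt-Nd3, which is between 13.3-fold and 18.4-fold lower, with adjusted p between 0.000531 and 0.0467. Of all genes 41.9% passed the test in this comparison and 19.8% passed as lower. Scaled to a common column total the 13 were again all lower, at -2.11 to -1.64 with adjusted p between 0.000228 and 0.0015. There 0.413% of genes passed as lower and 81.0% as higher. The median log2 difference of all genes was 0.05 on the deposited scale and 2.11 on the column total. Relative to it the median member was -4.06, against -4.09 on the deposited scale. mt-Co1, at -4.07 ± 1.54 (adjusted p = 0.0467), had the widest error, and its call was lost without any 1 of CMV-GE11-siRE replicates 1, 3 or 4 or of the 4 CMV-scrR libraries (adjusted p between 0.0835 and 0.11). With no filter on low values 5 of 13 passed, at unchanged differences.

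Against CMV-siRE the CMV-GE11-siRE tumours were also lower for every member, but whether the members passed the test depended on the scale. On the deposited values the differences were -3.47 to -2.76, all 13 had an unadjusted p under 0.05, and 0 of 13 passed after adjustment in limma (adjusted p between 0.0539 and 0.172), where 0.0214% of all genes did. Scaled to the column total 13 of 13 fell, by log2 differences of -1.87 to -1.15, where 0.271% of genes passed as lower and 76.8% as higher. The median log2 difference of all genes was 1.63 there, against 0.05 on the deposited scale. Of the 13, 10 had shares of the column total wholly below those of the CMV-siRE tumours. Of all genes 0.178% lay wholly below and 58.4% wholly above, percentages that again are not independent of the members. mt-Nd4 had 6924, 35999, 16551 and 16885 ppm with CMV-GE11-siRE, against 42964, 59885, 72033 and 52199 with CMV-siRE. On the deposited values 12 of 13 passed without CMV-siRE replicate 1 and 2 without CMV-GE11-siRE replicate 2, and 0 when any other library of the 2 groups was left out.

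CMV-siRE against CMV-scrR gave no call in the tumours. In limma 0 of 13 passed and 0 had an unadjusted p under 0.05, at log2 differences of -1.01 to -0.60 with standard errors of 0.58 to 1.54, and 0.256% of all genes passed. The 3 circuits share the fit, and both comparisons with the control use the same 4 CMV-scrR libraries.

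**Figure D4:**
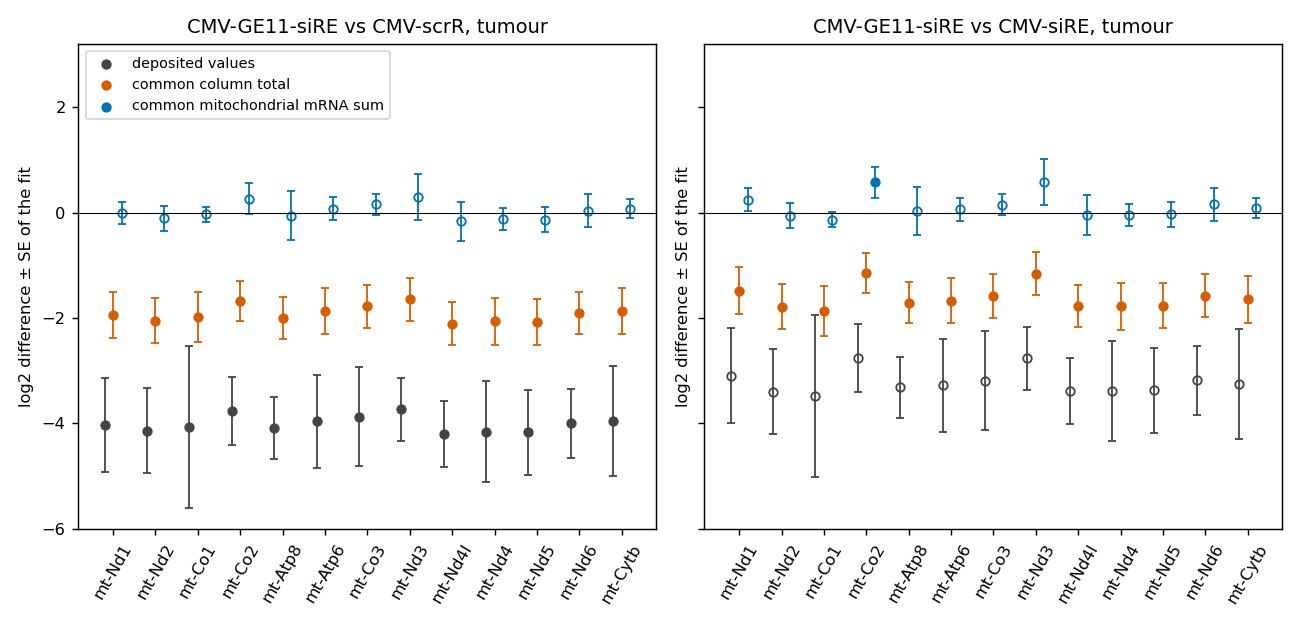
Log2 difference ± SE of the limma fit for each member in tumours (vertical axis), for CMV-GE11-siRE against CMV-scrR (left) and against CMV-siRE (right), on deposited values, on a common column total and on a common mitochondrial mRNA sum. Filled points passed an adjusted p of 0.05. On the first scale the left panel runs from -4.20 to -3.74, and on the mitochondrial sum from -0.17 to 0.30.

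Within the mitochondrial mRNAs the tumours gave few calls. After each library was scaled to the same mitochondrial mRNA sum, 0 of 13 members passed between CMV-GE11-siRE and CMV-scrR in limma, with 0 at an unadjusted p under 0.05 and differences of -0.17 to 0.30. The standard errors were 0.14 to 0.46, on a scale where the median log2 difference of all genes was 4.04. Small shifts within the sum could therefore not be called. As a plain share of the sum, mt-Nd4 lay wholly below the control with CMV-GE11-siRE. With copies added it overlapped, and mt-Nd3 lay wholly above the control. Against CMV-siRE, mt-Co2 and mt-Nd3 lay wholly above with CMV-GE11-siRE, and no member did with copies added. With CMV-siRE, mt-Co2 lay wholly below the control, and with copies added mt-Nd5 did instead. The share of all genes lying apart was not counted on this scale. mt-Co1 held 36.1% ± 0.572 of the sum with CMV-GE11-siRE, 39.8% ± 3.32 with CMV-siRE and 37.1% ± 0.658 with CMV-scrR (SD, n = 4 each). Between CMV-GE11-siRE and CMV-siRE only mt-Co2 passed, as higher, at 0.58 ± 0.29 (adjusted p = 0.0494), on a scale where 97.6% of all genes passed. With Gm28661 added to mt-Co2 that difference was 0.06 ± 0.17 (adjusted p = 0.712), and it was no longer a call. It was also lost without any 1 of 5 libraries (CMV-GE11-siRE replicates 3 and 4 and CMV-siRE replicates 1, 2 and 3; adjusted p between 0.0661 and 0.0915). The mt-Co2 side of the pair held 20.2%, 16.5%, 16.9% and 18.7% with CMV-GE11-siRE and 12.96%, 12.4%, 12.4% and 12.8% with CMV-siRE.

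The values listed for the nuclear copies were lower together with the members in the tumours. Away from the few differing bases, a read of Gm28661 or Gm28438 cannot be told from one of mt-Co2 or mt-Nd3. Their differences are thus no separate result about transcripts of chromosome 1. Gm28661 differed by -3.97 ± 1.01 (adjusted p = 0.00755) between CMV-GE11-siRE and CMV-scrR on the deposited values in limma, and Gm28438 by -3.74 ± 0.59 (adjusted p = 0.000734). With the copies added, the mitochondrial share of the column total was 9.40%, 44.004%, 20.7% and 22.6% with CMV-GE11-siRE and 80.2%, 72.001%, 83.3% and 84.4% with CMV-scrR, and the groups stayed apart.

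Markers of other cell types also differed between the circuits in the same tumours, in both directions. Of 15 marker sums, 4 lay wholly above the control with CMV-GE11-siRE and 1 wholly below it as shares of the column total, where 75.5% of all genes lay wholly above. The 7 markers of alveolar epithelium summed to 48514 to 95649 ppm with CMV-GE11-siRE, 3527 to 57037 with CMV-siRE and 2242 to 3786 with CMV-scrR. The 7 of heart muscle, a tissue rich in mitochondria, summed to 79.8 to 234 ppm with CMV-GE11-siRE, 2.61 to 118 with CMV-siRE and 1.83 to 60.5 with CMV-scrR, and none of the 7 was listed at 0 throughout. The sums of proximal tubule and distal nephron markers were the other 2 that lay above. Hepatocyte markers lay below, at 1.69 to 2.48 ppm with CMV-GE11-siRE, 1.67 to 4.65 with CMV-siRE and 4.31 to 36.6 with CMV-scrR.

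Because the mitochondrial mRNAs fill much of the column total in the tumours, the sums were also counted in ppm of the total outside the mitochondrial genome and its copies. There 2 of 15 lay wholly above the control with CMV-GE11-siRE, alveolar epithelium and distal nephron, and 2 wholly below it, hepatocyte and brown fat. The alveolar sum was 70345 to 105569 with CMV-GE11-siRE, 24206 to 120025 with CMV-siRE and 10065 to 22709 with CMV-scrR. The heart muscle sum overlapped on this total, at 101 to 303 with CMV-GE11-siRE, 17.9 to 422 with CMV-siRE and 11.7 to 216 with CMV-scrR. Brown fat, also rich in mitochondria, had 2.86 to 6.26 with CMV-GE11-siRE, 2.90 to 9.27 with CMV-siRE and 9.52 to 27.2 with CMV-scrR. A CMV-GE11-siRE tumour had 18460.0 to 19920.0 genes listed above 0, against 15880.0 to 17077 in a CMV-scrR tumour. The part of these differences in the mitochondrial result was not tested.

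The nuclear genes that make and serve the mitochondrial mRNAs differed in both directions in the tumours on the deposited scale. Among 17 genes of mitochondrial DNA transcription and replication 8 rose and 0 fell with CMV-GE11-siRE against CMV-scrR in limma on deposited values, with a median of 0.58 beside 0.05 over all genes. Of all genes 22.1% passed as higher and 19.8% as lower in this comparison, while 47.1% of the transcription and replication list and 35.5% of the RNA processing list passed as higher. The mitochondrial RNA polymerase Polrmt was at 1.79 ± 0.33 (adjusted p = 0.00137), the catalytic subunit of the mitochondrial DNA polymerase Polg at 1.50 ± 0.28 (adjusted p = 0.0015) and the primase Primpol at 1.45 ± 0.28 (adjusted p = 0.00176). Of 31 genes of mitochondrial RNA processing and stability 11 rose, among them Trmu, which modifies mitochondrial transfer RNAs, at 2.28 ± 0.36, and Nsun4, which methylates the small mitochondrial ribosomal RNA, at 2.00 ± 0.40. In that list 3 fell, and its median was 0.58.

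On the same deposited scale, but not on a common column total, 19 of 80 mitochondrial ribosomal proteins fell. That is 23.8% of the list, close to the 19.8% of all genes that passed as lower, and is no result about the list. Of the list 2 rose, or 2.50% beside 22.1%, the median was -0.35, and among those that fell Mrps18a (-1.42 ± 0.30), Mrpl27 (-1.10 ± 0.25) and Mrpl11 (-1.05 ± 0.24) had the smallest adjusted p. Among 13 genes of mitochondrial dynamics and mitophagy 1 rose and 6 fell (46.2% lower beside 19.8% of all genes), including the mitophagy kinase Pink1 at -1.75 ± 0.23 (adjusted p = 0.000413) and the fusion GTPase Mfn2 at -1.28 ± 0.22 (adjusted p = 0.000937). Of 10 regulators of biogenesis 2 rose, Pprc1 at 2.70 ± 0.38 (adjusted p = 0.000513) and the nuclear receptor Esrra at 0.93 ± 0.22 (adjusted p = 0.00525), and Yy1 fell, at -0.47 ± 0.18 (adjusted p = 0.0474). The stress list had 0 higher and 2 lower of 14 (14.3% lower), with the chaperonin Hspd1 at -0.90 ± 0.26 (adjusted p = 0.0142). Among 21 assembly and import factors 1 rose, the import motor protein Timm44 at 1.52 ± 0.27, and 5 fell (23.8%), with the copper chaperone Cox17 at -1.05 ± 0.21 and the import channel Timm23 at -0.99 ± 0.23.

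The calls as lower depend on the scale. On a common column total none of the 7 lists had a member that passed as lower, and 17 of 17 transcription and replication genes, 76 of 80 ribosomal proteins and 11 of 13 dynamics genes passed as higher, where 81.0% of all genes did. The medians of these 3 lists were 2.65, 1.74 and 1.55 beside 2.11 over all genes, so the ribosomal proteins and dynamics genes lay below the median gene and the transcription genes above it on either scale. In the other tumour comparisons 0 of the 185 genes of the 7 lists passed on the deposited values in limma, with 24 at an unadjusted p under 0.05 for CMV-siRE against CMV-scrR and 55 for CMV-GE11-siRE against CMV-siRE, where 0.256% and 0.0214% of all genes passed. On the column total 165 of the 185 passed as higher for CMV-GE11-siRE against CMV-siRE, where 76.8% of all genes did, and 0 for CMV-siRE against CMV-scrR.

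In lung the mitochondrial share was higher with both siRNA circuits. It was 2.05%, 2.79%, 2.27% and 2.65% with CMV-GE11-siRE, 2.51%, 2.50%, 2.27% and 2.23% with CMV-siRE and 1.98%, 1.83%, 1.74% and 1.93% with CMV-scrR, so neither siRNA group overlapped the control. By single members 7 of 13 lay wholly above the control with CMV-siRE, where 7.23% of all genes did, and 5 of 13 with CMV-GE11-siRE, where 3.22% did.

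For mt-Co1 the level in ppm was 7859, 10461, 8537 and 9923 with CMV-GE11-siRE, 9121, 9208, 9065 and 8549 with CMV-siRE and 7420.0, 5988, 6814 and 7351 with CMV-scrR. mt-Nd1, a complex I subunit beside the quinone site, had 1433, 1923, 1549 and 1806 with CMV-GE11-siRE, 1812, 1853, 1478 and 1445 with CMV-siRE and 1354, 1058, 1246 and 1367 with CMV-scrR. For both genes the 2 siRNA groups overlapped each other and lay above the control. In limma 1 of 13 rose with CMV-siRE against CMV-scrR on the deposited values, beside 0.483% of all genes called higher and 1.41% in either direction.

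That gene was mt-Co2, at 0.99 ± 0.20 (adjusted p = 0.0321). It had 797, 846, 759 and 811 ppm with CMV-siRE, against 375, 528, 264 and 454 with CMV-scrR. With Gm28661 added it had 2793, 3267, 2505 and 2579 with CMV-siRE, against 2054, 1804, 1876 and 2099 with CMV-scrR; the groups were still apart, the difference was 0.46 ± 0.15 (adjusted p = 0.118), and 0 of 13 members passed. The call was also lost without any 1 of the 4 CMV-siRE libraries or of CMV-scrR replicates 1 and 3 (adjusted p between 0.0668 and 0.0844). In the other lung comparisons 0 of 13 passed in limma, with 9 at an unadjusted p under 0.05 for CMV-GE11-siRE against CMV-scrR (0.0% of all genes called, 1277 at an unadjusted p under 0.05) and 4 for CMV-GE11-siRE against CMV-siRE (0.0619% called).

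On the common mitochondrial sum, where 15.4% of all genes passed, mt-Co2 was higher with CMV-siRE in lung at 0.69 ± 0.19 (adjusted p = 0.0305) and mt-Nd4l, a small complex I subunit, was lower at -0.40 ± 0.13 (adjusted p = 0.0468). With copies added they were at 0.14 ± 0.12 (adjusted p = 0.367) and -0.42 ± 0.14 (adjusted p = 0.0533), and neither passed. Without 1 library the mt-Co2 call was lost in 5 of 8 cases and the mt-Nd4l call in 8 of 8. Red cell markers were lower with CMV-siRE in lung: the 7 erythroid genes summed to 2641 to 3645 ppm with CMV-GE11-siRE, 915 to 1643 with CMV-siRE and 3222 to 4343 with CMV-scrR, and their part in the result was not tested. Heart muscle markers overlapped, at 36.3 to 843 ppm with CMV-GE11-siRE, 37.9 to 44.6 with CMV-siRE and 36.04 to 154 with CMV-scrR.

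Spleen showed the same direction. The share was 2.18%, 1.91%, 1.90% and 1.96% with CMV-GE11-siRE, 2.26%, 2.08%, 2.12% and 2.05% with CMV-siRE and 1.59%, 1.70%, 1.74% and 1.60% with CMV-scrR, again with both siRNA groups above the control. Of 13 members 7 lay wholly above it with CMV-siRE, where 10.7% of all genes did, and 4 with CMV-GE11-siRE, where 7.89% did.

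For mt-Co1 the level in ppm was 9346, 8450.0, 8608 and 8703 with CMV-GE11-siRE, 9449, 9225, 9567 and 8827 with CMV-siRE and 6927, 7169, 7712 and 7190.0 with CMV-scrR. Both siRNA groups lay above the control. mt-Co3 had 1541, 1436, 1225 and 1084 ppm alone with CMV-GE11-siRE, 1726, 1479, 1517 and 1948 with CMV-siRE and 1138, 965, 1140.0 and 606 with CMV-scrR, and with its copy 2412, 2273, 2235 and 2366 with CMV-GE11-siRE, 2506, 2560.0, 2361 and 3005 with CMV-siRE and 1576, 1688, 1710.0 and 1597 with CMV-scrR. Alone, CMV-siRE lay above the control and CMV-GE11-siRE overlapped it, and with the copy both lay above. mt-Atp6 had 1225, 874, 981 and 1156 ppm alone with CMV-GE11-siRE, 1295, 1162, 1012 and 1269 with CMV-siRE and 1044, 1037, 1076 and 924 with CMV-scrR, and with its copy 1710.0, 1531, 1588 and 1642 with CMV-GE11-siRE, 1733, 1764, 1672 and 1996 with CMV-siRE and 1110.0, 1215, 1249 and 1165 with CMV-scrR. Alone, both siRNA groups overlapped the control, and with the copy both lay above it.

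On the deposited values 1 of 13 rose in limma with CMV-siRE against CMV-scrR, mt-Co2 at 0.94 ± 0.18 (adjusted p = 0.0105), beside 1.73% of all genes called higher and 4.61% in either direction. Scaled to the column total 5 rose (mt-Nd1, mt-Co1, mt-Co2, mt-Co3, mt-Nd3), beside 4.05% of all genes. The median log2 difference of all genes was 0.10 there and 0.004 on the deposited values. Relative to it the median member was at 0.16 on either scale. With copies added on the column total 6 rose in limma, beside 4.07%. The strongest were mt-Co3 at 0.66 ± 0.09 (adjusted p = 0.00147) and mt-Atp6 at 0.59 ± 0.08 (adjusted p = 0.00188). Adding the copies to mt-Co2 lowered its difference from 1.04 to 0.51 on that scale, and it raised that of mt-Atp6 from 0.21 to 0.59. The mt-Atp6 call came only with Gm10925 added, whose own difference on that scale was 2.00 ± 0.31 in limma (adjusted p = 0.00314).

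For CMV-GE11-siRE against CMV-scrR in spleen 0 of 13 passed on the deposited values, with 3 at an unadjusted p under 0.05, where 5.76% of all genes were called in limma. Scaled to the column total 1 rose in limma, mt-Co2 at 0.66 ± 0.17 (adjusted p = 0.0413), beside 3.3% of all genes called higher. The median gene was at 0.07 there and the median member at 0.20. With copies added on that scale 3 rose (mt-Co2, mt-Atp6, mt-Co3), beside 3.33%. Between CMV-GE11-siRE and CMV-siRE 0 of 13 passed in limma and 0 had an unadjusted p under 0.05, where 0.112% of all genes passed.

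On the common mitochondrial sum mt-Co2 was higher with CMV-siRE in spleen, at 0.68 ± 0.18 (adjusted p = 0.016), where 22.3% of all genes passed. With Gm28661 added it was at 0.13 ± 0.10 (adjusted p = 0.355), and without CMV-siRE replicate 1 the call was lost (adjusted p = 0.0565). Red cell genes take up part of the spleen's column total: the 7 erythroid markers summed to 26686 to 49664 ppm with CMV-GE11-siRE, 6135 to 15987 with CMV-siRE and 43966 to 60131 with CMV-scrR. In another count the 10 most abundant nuclear genes, chosen by mean level and not by cell type, were taken out of the total. The share was then 2.02% to 2.29% with CMV-GE11-siRE, 2.13% to 2.37% with CMV-siRE and 1.71% to 1.87% with CMV-scrR. The part of red cells in the share and in the calls of single members was not tested. Among nuclear genes of the 7 lists, Gabpa, a transcription factor for respiratory chain genes, rose on the deposited values with CMV-GE11-siRE at 0.55 ± 0.09 (adjusted p = 0.00858) and with CMV-siRE at 0.36 ± 0.09 (adjusted p = 0.0373). Primpol rose with CMV-GE11-siRE at 0.57 ± 0.15 (adjusted p = 0.0415), and Bnip3l, a mitophagy receptor needed when red cells mature, fell with CMV-siRE at -0.81 ± 0.17 (adjusted p = 0.0164). On the deposited values these were the only list genes that passed in spleen in limma, 2 of 185 as higher with CMV-GE11-siRE, where 2.29% of all genes did, and 1 as higher and 1 as lower with CMV-siRE, where 1.73% and 2.88% did. On the column total the same genes passed in the same directions, and others were added as higher: with CMV-GE11-siRE Ptcd3 at 0.36 ± 0.09 (adjusted p = 0.0393) and the fission GTPase Dnm1l at 0.34 ± 0.09 (adjusted p = 0.0446), and with CMV-siRE the mitophagy receptor Fundc1 at 0.49 ± 0.11 (adjusted p = 0.0202), Ptcd3 at 0.34 ± 0.09 (adjusted p = 0.0404), the mitochondrial single-stranded DNA binding protein Ssbp1 at 0.32 ± 0.09 (adjusted p = 0.0423) and Mterf3 at 0.45 ± 0.13 (adjusted p = 0.0485). That made 4 higher with CMV-GE11-siRE (3.3% of all genes) and 5 higher and 1 lower with CMV-siRE (4.05% and 2.21% of all genes); the added genes are named because the counts are small, after their values were seen.

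Liver separated less. The share was 5.75%, 6.51%, 5.22% and 6.05% with CMV-GE11-siRE, 5.42%, 5.02%, 4.83% and 4.46% with CMV-siRE and 5.37%, 5.61%, 5.33% and 5.70% with CMV-scrR, and each pair of groups overlapped. In limma 0 of 13 passed in any liver comparison on the deposited values. At an unadjusted p under 0.05 were 1 for CMV-GE11-siRE against CMV-scrR, where 4.23% of all genes passed, 4 for CMV-siRE against CMV-scrR, where 4.04% passed, and 9 for CMV-GE11-siRE against CMV-siRE, where 0.0069% passed. The smallest adjusted p was that of mt-Co2 with CMV-GE11-siRE against CMV-scrR, at 0.50 ± 0.15 (adjusted p = 0.0719), and with Gm28661 added that difference was 0.15 ± 0.14 (adjusted p = 0.593). mt-Nd3 was at -0.44 ± 0.14 (adjusted p = 0.106) with CMV-siRE against CMV-scrR. Of the 186 genes of the nuclear lists 1 passed in limma on the deposited values, the mitophagy receptor Sqstm1, lower with CMV-siRE against CMV-scrR at -0.39 ± 0.09 (adjusted p = 0.0333), where 1.97% of all genes passed as lower. On the column total Sqstm1 did not pass. There 1 of 186 passed, the biogenesis regulator Pprc1, lower with CMV-GE11-siRE against CMV-scrR at -1.01 ± 0.27 (adjusted p = 0.0488), where 2.11% of all genes passed as lower; it is named after its value was seen.

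In kidney the mitochondrial share was lower with CMV-siRE. It was 9.60%, 9.73%, 11.7% and 10.1% with CMV-siRE and 12.6%, 11.7%, 11.8% and 12.5% with CMV-scrR, and the highest CMV-siRE kidney lay just below the lowest control. With copies added they overlapped, at 10.52% to 12.9% with CMV-siRE and 12.8% to 13.8% with CMV-scrR. Of 13 members 7 lay wholly below the control, where 9.08% of all genes did: mt-Cytb and the complex I subunits mt-Nd2, mt-Nd3, mt-Nd4l, mt-Nd4, mt-Nd5 and mt-Nd6.

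mt-Nd5, a proton-pumping subunit of complex I, had 5365, 5827, 7766 and 7333 ppm with CMV-siRE, against 8827, 9625, 11075 and 10767 with CMV-scrR. mt-Nd6 had 1354, 1421, 1773 and 1780.0 with CMV-siRE, against 2339, 2341, 2373 and 2367 with CMV-scrR. mt-Co3 had 6987, 6383, 6532 and 5581 alone with CMV-siRE, against 7903, 7476, 4465 and 5856 with CMV-scrR, and with its copy 10300.0, 10840.0, 10904 and 9644 with CMV-siRE, against 11389, 10552, 9533 and 10134 with CMV-scrR. The first 2 were lower with CMV-siRE and the third overlapped either way. As a percent of the control mean, with copies added, the members ran from 65.2% for mt-Nd5 to 100.2% for mt-Co3, with mt-Co1 at 96.8%.

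In limma 0 of 13 passed in kidney in any comparison and 0 had an unadjusted p under 0.05. The background was 0.0% of all genes called in each and 1218 for CMV-GE11-siRE against CMV-scrR, 1486 for CMV-siRE against CMV-scrR and 599 for CMV-GE11-siRE against CMV-siRE at an unadjusted p under 0.05. These fits include CMV-GE11-siRE replicate 4, a library that stands apart. Without it 5 members had an unadjusted p under 0.05 for CMV-siRE against CMV-scrR, all lower, the smallest adjusted p was 0.0843, and 0 passed, where 0.245% of all genes did. The direction against CMV-siRE turned without that library: the median log2 difference of the 13 for CMV-GE11-siRE against CMV-siRE was 0.22 without it and -0.48 with it, and without it all 13 lay between 0.04 and 0.35. Against CMV-scrR the median was -0.22 without it and -0.82 with it. Of all genes 0.0% passed in either of these 2 comparisons without it. Proximal tubule cells are the kidney's main users of mitochondria, and their 6 markers summed to 6506 to 14016 ppm with CMV-siRE and 12096 to 14489.8 with CMV-scrR, which overlapped; their part in the result was not tested.

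Replicate 4 of CMV-GE11-siRE had a low mitochondrial share in kidney and in thymus. In kidney the 4 libraries had 12.01%, 10.7%, 12.7% and 3.69%, and in thymus 1.92%, 1.91%, 1.90% and 0.558%. The 13 members were lower to unequal degrees. Relative to the mean of replicates 1 to 3, with copies added, mt-Co3 was at 73.3% in kidney and 50.6% in thymus, mt-Co1 at 54.9% and 42.1%, and mt-Nd3 at 29.2% and 25.2%. The other 10 members were at 7.23% to 17.4% in kidney and 13.4% to 21.7% in thymus. mt-Nd4 and mt-Nd4l were the lowest in both organs.

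mt-Nd4 had 12909, 10015, 14289 and 897 ppm in the 4 kidneys and 1691, 1624, 1733 and 243 in the 4 thymuses given CMV-GE11-siRE. The order of the 13 members was similar in both organs, with a Spearman's rho of 0.91 between the 2 sets of percentages, a description over 13 genes in 2 libraries that share a circuit and a replicate number. Gene length (rho of -0.17 in kidney and -0.09 in thymus) and GC content (0.06 and -0.10) had weak rank correlations with these percentages. Nuclear genes over 10 ppm had a median of 102% of the other libraries in kidney and 97.3% in thymus. In liver, lung and spleen the replicate 4 libraries of that circuit were at 89.8% to 131% for single members and did not stand apart.

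**Figure D5:**
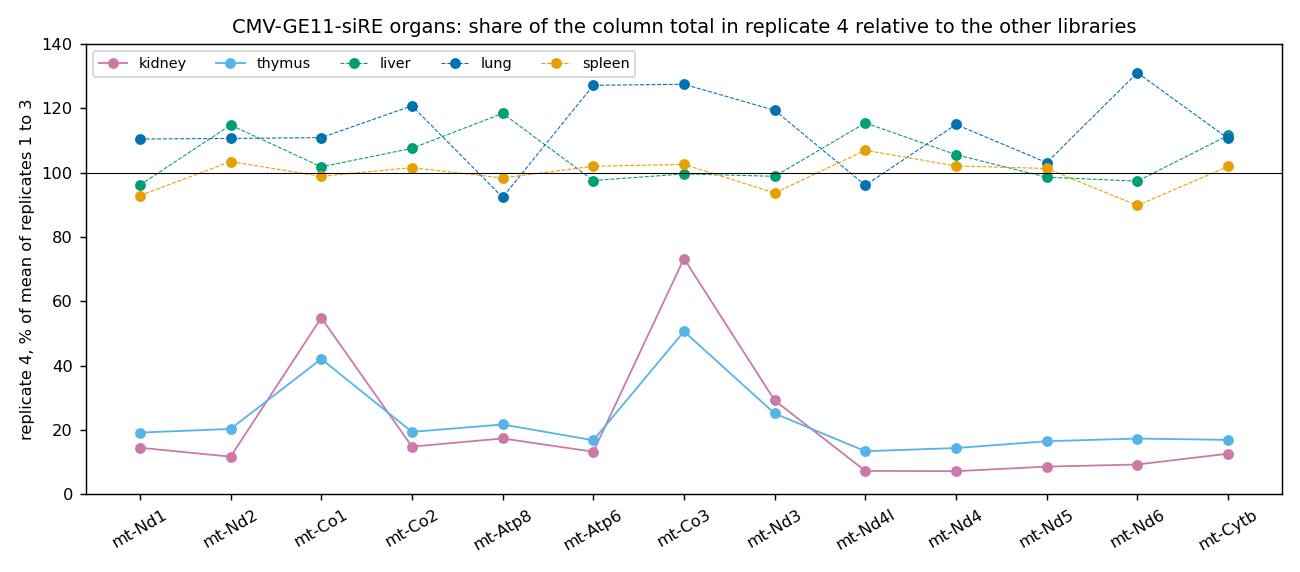
Share of the column total in CMV-GE11-siRE replicate 4 as a percent of the mean of replicates 1 to 3 (vertical axis), by member in genome order, with nuclear copies summed in, for 5 organs. Lines join the members of an organ. Kidney and thymus fall together, with mt-Co3 at 73.3% and 50.6% and mt-Nd4 at 7.23% and 14.4%, while liver, lung and spleen lie at 89.8% or more.

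The balance of mt-Co3 to mt-Nd5 also varied in other libraries. The ratio of mt-Co3, copy included, to mt-Nd5 was 10.9 in that kidney and 4.62 in that thymus, with medians of 1.30 and 1.52 over the 12 libraries of each organ. In spleen it was 4.36 in CMV-siRE replicate 4 and 1.86 in the median library, and in lung it reached 2.12 in CMV-siRE replicate 2 with a median of 1.25. In kidney it was 1.92, 1.86, 1.40 and 1.31 with CMV-siRE and 1.29, 1.10, 0.861 and 0.941 with CMV-scrR, and every CMV-siRE kidney lay above every control. In liver the 12 libraries ran from 0.954 to 1.40. These libraries were picked out after their values were seen, and no test was run on the ratio.

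Apart from that library the thymus varied little. The share was 1.64%, 1.88%, 1.84% and 1.86% with CMV-siRE and 1.68%, 1.68%, 1.80% and 1.73% with CMV-scrR, which overlapped, and the 3 other CMV-GE11-siRE libraries were 1.90% to 1.92%. In limma 0 of 13 passed in any thymus comparison and 0 had an unadjusted p under 0.05, where 0.00609% of all genes passed for CMV-siRE against CMV-scrR and 0.0% in the other 2 comparisons. Without CMV-GE11-siRE replicate 4 again 0 of 13 passed, but 10.8% of all genes then passed for CMV-siRE against CMV-scrR, 0.0% for CMV-GE11-siRE against CMV-scrR and 0.00609% for CMV-GE11-siRE against CMV-siRE. In that fit 2 members for CMV-GE11-siRE against CMV-scrR, 1 for CMV-siRE against CMV-scrR and 3 for CMV-GE11-siRE against CMV-siRE had an unadjusted p under 0.05. The median log2 difference of the 13 changed sign with the library: for CMV-GE11-siRE against CMV-scrR it was 0.11 without it and -0.50 with it, and for CMV-GE11-siRE against CMV-siRE 0.13 without it and -0.38 with it. Of the 185 genes of the 7 nuclear lists 0 passed in thymus, kidney or lung in limma on the deposited values, and between 2 and 17 had an unadjusted p under 0.05 in a comparison. On the column total 1 passed in these 3 organs, the import receptor Tomm20, higher in lung with CMV-siRE against CMV-scrR at 0.48 ± 0.11 (adjusted p = 0.0478), where 0.761% of all genes passed as higher; it too is named after its value was seen.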

How the data were processed

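The 72 libraries were made from TRIzol RNA with the TruSeq RNA Sample Prep Kit, per the labels' protocols. This kit, as generally known, selects poly(A) RNA and does not mark strand, so mt-Nd6 and the genes opposite it cannot be told apart by strand. The deposited values are a signal, gene counts that the authors divided by size factors, 1 table per tissue, and DESeq2 is named in the submitters' processing notes without version or role. The aligner, the counter and the build were each not given in the sources used here. Whole reads could not be recovered, so depth and counting error are unknown and the number of libraries limits the precision. Of 36047 identifiers 35968 match GENCODE M21 with version.

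Each tissue was fitted alone by the trend method of limma 3.58.1, under R 4.3.3, on log2(value + 1) for genes of at least 10 in at least 4 of 12 libraries, with 1 mean per circuit, 3 comparisons and Benjamini-Hochberg adjustment over all genes tested at a threshold of 0.05. All 13 members passed the filter in each tissue. Fold changes are on the log2(value + 1) scale. The script was tested on simulated data. Further fits used a common column total, a common total outside the mitochondrial genome and a common mitochondrial mRNA sum. Nuclear copies were found with BLAST+ 2.17.0 at an identity of at least 90% over at least 80% of the copy, against transcripts of GENCODE M21, which gave 16, and sequences are from the same transcripts and GRCm38. Summing copies, and leaving out replicate 4 of CMV-GE11-siRE, were chosen after seeing the data. The members and gene lists were chosen with earlier results of these data known. Members were all named. Of each nuclear list, up to 3 genes with the smallest adjusted p were named, and up to 5 copies by level. Alternatives were another pseudocount, no filter, the scalings, a replicate block, fits of 8 libraries and each library left out. Same-numbered libraries correlated above 0.1 in at most 2 of 12 pairs of a tissue, so the numbers were not taken as pairs.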

Additional observations from a re-analysis of the deposited data

Results flagged for a closer look

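The libraries below stood apart from the other 3 of their group by Dixon's criterion, which 6 of the 54 sets of 4 values met. The sets are the mitochondrial share, the mt-Co1 share of the mitochondrial mRNA sum and the mt-Co2 side of its pair, in each group. Chance gives about 1 in 20 for a single set, but sets of the same libraries are not independent. In thymus, CMV-GE11-siRE replicate 4 had a mitochondrial share of 0.558% of the column total, with 1.90% to 1.92% in the others, and mt-Co1 held 51.2% of its mitochondrial mRNA sum with copies added, with 34.7% to 37.1% in the others. CMV-siRE replicate 1 of thymus had a share of 1.64%, with 1.84% to 1.88% in the others. In kidney, mt-Co1 held 29.7% of the mitochondrial mRNA sum in CMV-scrR replicate 2 and 32.7% to 33.2% in the other controls. The mt-Co2 side of the pair of mt-Co2 and Gm28661 held 38.9% in CMV-GE11-siRE replicate 2 of spleen, with 25.4% to 27.2% in the others, and 17.7% in CMV-scrR replicate 4 of liver, with 25.6% to 26.7% in the others.

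The mitochondrial share moved in opposite directions in different tissues under the same circuit, with groups that did not overlap. CMV-GE11-siRE minus CMV-scrR was -48.0 percentage points in tumour, 0.57 in lung and 0.33 in spleen. CMV-siRE minus CMV-scrR was -1.87 percentage points in kidney, 0.51 in lung and 0.47 in spleen. With copies added the kidney groups overlapped, at 10.5% to 12.9% with CMV-siRE and 12.8% to 13.8% with CMV-scrR. The other groups named here stayed apart with copies added. These differences between tissues were not tested, because each table was normalized alone.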

How the results depend on the processing

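The counts of members past the threshold depended on scale, copies and single libraries, and so did the sign of differences that were not called: without CMV-GE11-siRE replicate 4 the median member turned from lower to higher for CMV-GE11-siRE against CMV-siRE in kidney and thymus and against CMV-scrR in thymus. In spleen the lowest member for CMV-GE11-siRE against CMV-scrR was at 0.04 on the column total and -0.02 on the deposited values. Tumour mt-Co2 against CMV-siRE was at 0.58 on the mitochondrial sum and -2.76 on the deposited values. No difference called on the deposited values or on the mitochondrial sum changed sign under the alternatives run for it. With no filter on low values 5 members passed for CMV-GE11-siRE against CMV-scrR in tumour, where 13 did with the filter; the cause was not tested. A common column total, and a common total outside the mitochondrial genome, each gave 13 for CMV-GE11-siRE against CMV-siRE in tumour, and in spleen 1 for CMV-GE11-siRE and 5 for CMV-siRE against CMV-scrR. With copies summed there were 2 for CMV-GE11-siRE and 3 for CMV-siRE in spleen and 0 for CMV-siRE in lung, and with copies and a common total 13 for CMV-GE11-siRE against CMV-siRE in tumour, 3 and 6 in spleen and 0 in lung. On the mitochondrial sum, copies left 0 calls for CMV-GE11-siRE against CMV-siRE in tumour and for CMV-siRE in lung and spleen. A fit of 8 libraries gave 2 for CMV-siRE in lung and 1 in kidney. The replicate block gave 12 for CMV-GE11-siRE against CMV-scrR in tumour, without mt-Co1, 1 for CMV-GE11-siRE against CMV-siRE in tumour, 2 for CMV-siRE in lung and 1 in liver, and on the mitochondrial sum 0 in tumour and 1 in lung. The numbers share no stated origin, so this is no paired result.

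Leaving out 1 library at a time gave 0 to 12 for CMV-GE11-siRE against CMV-siRE in tumour, 0 to 2 for CMV-siRE against CMV-scrR in lung, 0 to 1 for CMV-GE11-siRE against CMV-scrR in liver, 1 to 2 for CMV-siRE against CMV-scrR in spleen and, on the mitochondrial sum, 0 to 1 for CMV-GE11-siRE against CMV-siRE in tumour, 0 to 1 for CMV-siRE against CMV-scrR in lung, 0 to 1 for CMV-GE11-siRE against CMV-scrR in liver, 0 to 2 for CMV-siRE against CMV-scrR in spleen. On the deposited values the added calls came without CMV-scrR replicate 2 in lung and in liver and without CMV-scrR replicate 1 in spleen, and on the mitochondrial sum without CMV-GE11-siRE replicate 3 in liver and CMV-scrR replicate 1 in spleen.

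Adding the copies to the sum brought the mean mitochondrial share of the column total to 79.98% with CMV-scrR in tumour, 2.69% with CMV-siRE and 2.09% with CMV-scrR in lung, 5.42% with CMV-siRE and 6.03% with CMV-scrR in liver, 11.4% with CMV-siRE and 13.3% with CMV-scrR in kidney, 2.32% with CMV-GE11-siRE, 2.47% with CMV-siRE and 1.89% with CMV-scrR in spleen, and 2.05% with CMV-siRE and 1.93% with CMV-scrR in thymus. Taking the 10 most abundant nuclear genes out of the total brought it to 7.03% with CMV-GE11-siRE, 5.90% with CMV-siRE and 6.62% with CMV-scrR in liver, 13.05% with CMV-scrR in kidney, and 1.79% with CMV-scrR in spleen. The mt-Co1 share of the mitochondrial sum with copies was 32.4% with CMV-GE11-siRE, 34.96% with CMV-siRE and 33.04% with CMV-scrR in tumour, 33.8% with CMV-GE11-siRE, 33.8% with CMV-siRE and 32.9% with CMV-scrR in lung, 35.8% with CMV-GE11-siRE, 36.5% with CMV-siRE and 34.97% with CMV-scrR in liver, 36.7% with CMV-siRE and 32.2% with CMV-scrR in kidney, 37.8% with CMV-GE11-siRE, 37.8% with CMV-siRE and 38.4% with CMV-scrR in spleen, and 37.7% with CMV-siRE and 35.1% with CMV-scrR in thymus. Depth could not be recovered, so no limit on low counts can be given.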
